A study of Mus musculus with 2 samples.

Results

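The 57 genes described here encode G protein-coupled receptors for dopamine, serotonin, acetylcholine (the muscarinic receptors), adrenaline and noradrenaline, histamine, adenosine, GABA (the GABA-B receptor), cannabinoids, opioids, somatostatin and neuropeptide Y. They were chosen by gene symbol alone, out of 24015 gene symbols, and fall into 12 families. Their RNA was measured in J-RGCs, a ganglion cell type of the mouse retina, at postnatal day 6. A transgene active in this type labelled them with green fluorescent protein, and they were purified on magnetic beads and then by flow cytometry. There was 1 group with 2 libraries, A and B, each a pool of 5 to 6 animals of a separate litter. No second cell type, age, genotype or treatment was measured, so levels were compared between genes and between the libraries. The labels state no strain or sex, and not the promoter that drives the transgene.

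Receptors of this kind span the membrane, bind a transmitter outside the cell and act through G proteins inside it. Those that act through Gi or Go lower cyclic AMP and open or close potassium and calcium channels, those that act through Gs raise cyclic AMP, and those that act through Gq activate phospholipase C. In the retina, dopamine comes from a class of amacrine cells, GABA from many amacrine and horizontal cells, acetylcholine from starburst amacrine cells and somatostatin from a sparse set of amacrine cells. Adenosine forms from released ATP, and endocannabinoids are made by neurons on demand.

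Read counts were divided by each library's total over gene symbols and scaled to a total of 1000000 (CPM). Those totals were 7916204 reads in A and 13744313 in B, so 1 read was worth 0.126 CPM in A and 0.0728 CPM in B. A count of 0 allows up to 3 reads, which is 0.379 CPM for A or 0.218 CPM for B and covers counting error only. A gene was called detected at 1 CPM or more in both libraries. In bulk RNA of this kind, fewer cells with a transcript and less transcript per cell cannot be told apart. All 10 genes on a list of general ganglion cell markers exceeded 100 CPM in both libraries. Lists of other cell types were lower, with summed levels of 316 and 394 CPM in A and B for 10 microglia genes, 126 and 108 CPM for 9 amacrine cell genes, and 410 and 117 CPM for 8 vascular genes, against 10398 and 14775 CPM for the ganglion cell list. Of the amacrine genes 4 were detected, with Gad2 at 58.4 and 56.8 CPM, Tfap2b at 42.2 and 30.9 CPM and Tfap2a at 23.2 and 10.04 CPM, whereas Chat, Th, Slc18a3 and Slc32a1 stood below 1 CPM in both libraries. Of the 4 horizontal cell genes 3 were detected, Onecut1 at 2.40 and 13.2 CPM, Calb1 at 4.17 and 11.4 CPM and Prox1 at 7.96 and 5.89 CPM, and Lhx1 had no read. Of the 5 cone genes none was detected. Most of the vascular sum was Rgs5, at 342 and 82.4 CPM, which in A exceeded the ganglion cell marker Thy1 at 333 CPM. Vascular genes did not move together, since Cdh5 stood at 0.884 and 8.66 CPM.

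Few of these receptor genes were well represented. Of the 57 genes, 19 were detected (33.3%), against 46.8% of all gene symbols. At 10 CPM or more in both libraries there were 9 (15.8%), against 27.8% of all symbols, and Gabbr1 and Gabbr2 alone exceeded 100 CPM in both, a level reached by 6.53% of all symbols. No read was found for 9 genes (15.8%, against 29.3% of all symbols). Another 16 had reads in B but none in A (28.1%, against 13.4% of all symbols with a read in a single library), and no receptor gene had reads in A alone. The expression filter of edgeR, used only to estimate the spread between libraries, kept 20 of the 57 (35.1%, against 46.9% of all symbols). Detection depended on the library: 21 receptor genes reached 1 CPM in A and 29 in B. All gene symbols were not counted in this way for each library, so the difference cannot be called particular to receptor genes. Together the 57 genes held 0.232% of the reads assigned to genes in A, and 0.152% of those in B.

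**Figure D1:**
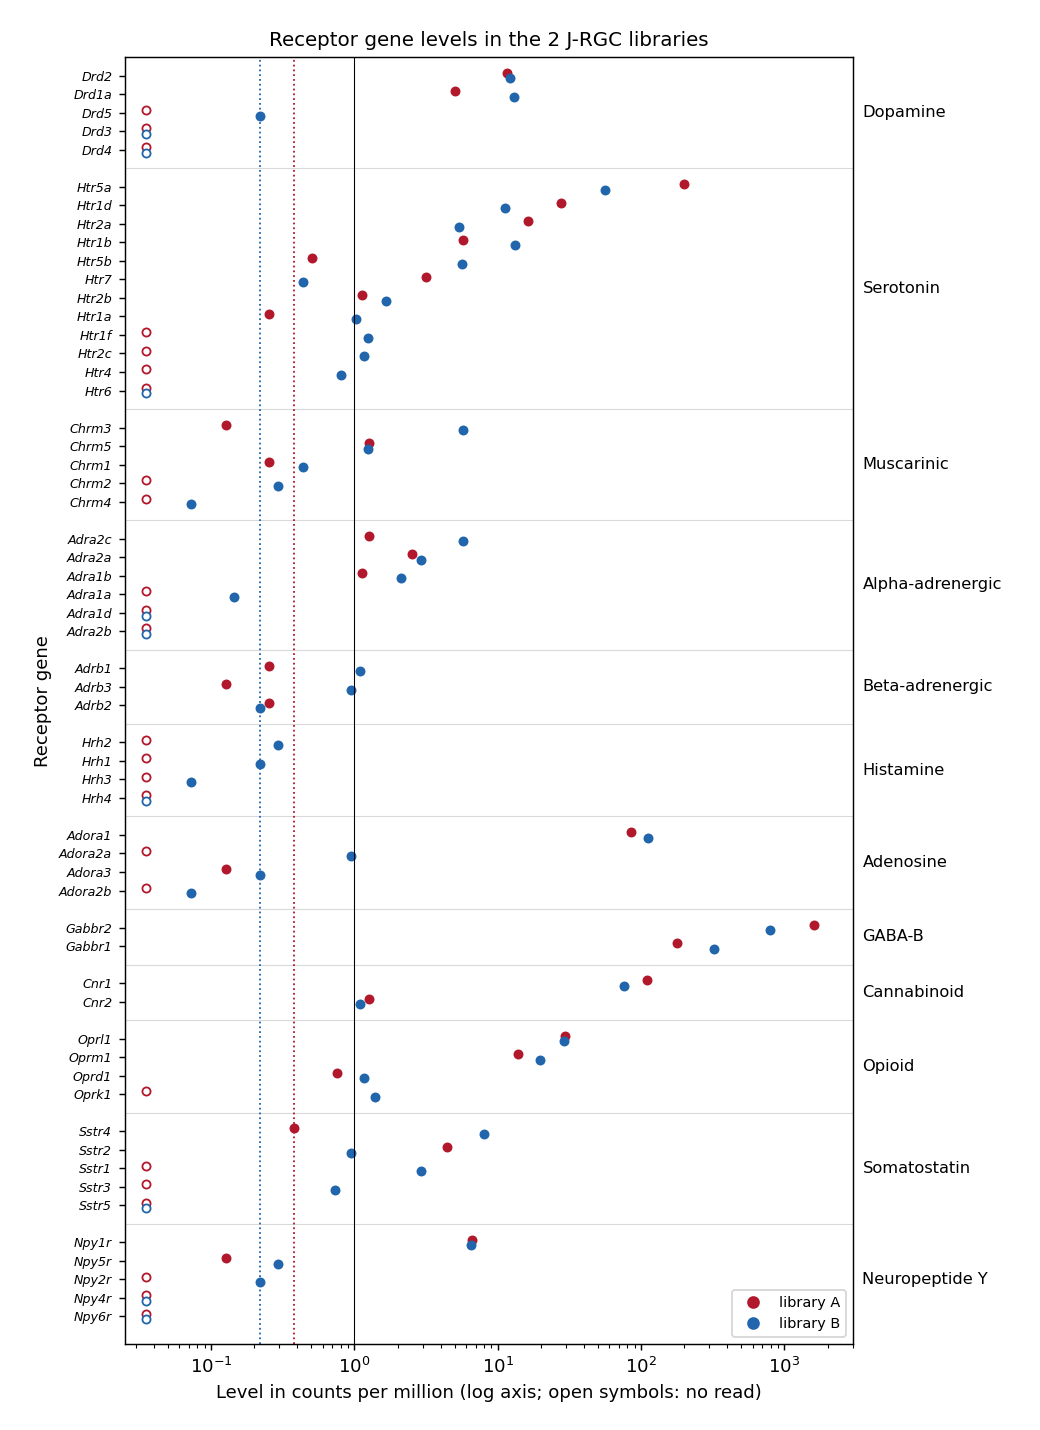
Level of each receptor gene in CPM on a log axis, by family, with library A in red and library B in blue. Open symbols at the left edge had no read, dotted lines mark the upper limit of a count of 0 in A (0.379 CPM, red) and in B (0.218 CPM, blue), and the vertical line marks 1 CPM. Gabbr2 lies farthest to the right in both libraries, and 9 genes have open symbols for both.

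The GABA-B receptor genes led the set. This receptor is an obligate pair in which Gabbr1 encodes the subunit that binds GABA and Gabbr2 the subunit that couples to the G protein. Gabbr2 had 12719 reads in A and 10828 in B, which is 1607 and 788 CPM, and ranked 97 among all genes by mean CPM. Gabbr1 had 1416 reads in A and 4469 in B, which is 179 and 325 CPM. Gabbr2 was 2.04-fold higher in A, whereas Gabbr1 was 1.82-fold higher in B, which is under the 2-fold limit for a call. Gabbr2 alone held 69.4% of the receptor genes' reads in A and 51.8% in B. Per kilobase of summed exon length, Gabbr2 exceeded Gabbr1 6.00-fold, with a 95% interval of 2.24 to 16.0 from counting error and the spread estimated by edgeR. In A alone that ratio was 10.4-fold and in B alone 2.81-fold, where the log2 ratio of 1.49 had an interval of -0.51 to 3.50 that held 0. The auxiliary KCTD proteins, which bind the GABA-B receptor and shape its response, were all detected (4 of 4), with Kctd12 at 1282 and 1724 CPM and Kctd8 at 92.2 and 146 CPM in A and B.

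The serotonin receptor gene Htr5a had the highest mean level per kilobase after Gabbr2 and Gabbr1, but its place differed between the libraries. Htr5a, which encodes the Gi/o-coupled receptor 5-HT5A, had 1578 reads in A and 775 in B, or 199 and 56.4 CPM, and was 3.54-fold higher in A. In A it stood at 37.1 CPM per kilobase, above Gabbr1 at 23.0, and in B at 10.5 CPM per kilobase, below Adora1 at 19.3 and Cnr1 at 11.9. Htr1d had 218 and 154 reads, or 27.5 and 11.2 CPM. Htr1b, which like Htr1d encodes a receptor found on axon terminals, stood at 5.68 and 13.2 CPM. Htr2a, a Gq-coupled receptor gene, stood at 16.3 and 5.38 CPM. Among serotonin receptors Htr5a, Htr1d and Htr2a were thus higher in A and Htr1b in B, and each of these differences was called by an exact binomial test between the libraries (described below with its background). The call of Htr1b was lost with TMM scaling, and 18.0% of its exon bases overlap an antisense transcript in the GENCODE M21 annotation. Per kilobase Htr5a exceeded Htr1d 3.998-fold (95% interval 1.58 to 10.1), with 4.31-fold in A and 2.996-fold in B. Without A the interval of the log2 ratio, -0.32 to 3.48, held 0. Of the 12 serotonin receptor genes 5 were detected, the fifth being Htr2b at 1.14 and 1.67 CPM. In that annotation 11.8% of the Htr2b exon bases lie within exons of Psmd1 on the other strand. Psmd1 stood at 254 and 193 CPM, and the use of strand in counting was not stated, so the Htr2b level is uncertain. Htr5b had 4 and 77 reads (0.505 and 5.60 CPM), Htr7 25 and 6 reads (3.16 and 0.437 CPM), and Htr1a 2 and 14 reads (0.253 and 1.02 CPM). Htr1f, Htr2c and Htr4 had 17, 16 and 11 reads in B and none in A, and Htr6 had none in either.

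Adora1 and Cnr1 were next by mean level per kilobase. Adora1 encodes the A1 adenosine receptor, a Gi/o-coupled receptor that reduces transmitter release, and had 676 reads in A and 1536 in B, or 85.4 and 112 CPM. The other adenosine receptor genes were close to the limit. Adora2a, which encodes a Gs-coupled receptor, had 0 and 13 reads, Adora3 1 and 3, and Adora2b 0 and 1. Exons of Tmigd3 on the same strand cover 20.9% of the Adora3 exon bases, and the effect on its count was not tested. Per kilobase Adora1 exceeded Adora2a 125-fold with both libraries (95% interval 39.8 to 392) and 62.5-fold in B alone, and in A no ratio could be formed because Adora2a had no read. Exons of Mybph on the other strand cover 20.1% of the Adora1 exon bases, and Mybph had 0 and 4 reads. Of 8 genes that make, break down or carry adenosine 3 were detected, led by Entpd1, an ectoenzyme that degrades ATP, at 11.7 and 42.9 CPM.

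Cnr1 encodes the neuronal cannabinoid receptor CB1 and had 875 reads in A and 1051 in B, or 111 and 76.5 CPM. Cnr2, the cannabinoid receptor gene better known from immune cells, had 10 and 15 reads, or 1.26 and 1.09 CPM, and per kilobase Cnr1 exceeded it 49.8-fold (95% interval 18.3 to 135). The ratio was 54.1-fold in A and 43.3-fold in B, so the libraries were close here. Of the 10 microglia markers 7 were detected, with P2ry12, a purine receptor gene of microglia, at 85.4 and 85.3 CPM, and the part of such cells in the Cnr2 reads was not tested. All 7 genes of endocannabinoid handling were detected. The highest by mean were Cnrip1, which encodes a CB1-binding protein, at 56.1 and 84.2 CPM, and Mgll, which encodes the lipase that degrades 2-arachidonoylglycerol, at 59.9 and 61.6 CPM. In A alone Faah, the gene for the hydrolase that degrades anandamide, was highest, at 77.7 CPM and 16.4 CPM in B.

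Among opioid receptor genes Oprl1, which encodes the nociceptin receptor, and Oprm1, which encodes the mu opioid receptor, were the ones above 10 CPM. Oprl1 had 233 reads in A and 400 in B, or 29.4 and 29.1 CPM, nearly the same level in both when scaled by library totals. Oprm1 had 109 and 273 reads, or 13.8 and 19.9 CPM. Per kilobase of summed exons Oprl1 exceeded Oprm1 3.82-fold (95% interval 1.44 to 10.2). That call depended on the length used for Oprm1, which has 8037 summed exon bases but 2420 in its longest transcript: with the longest transcript the log2 ratio was 0.48 (-0.93 to 1.89), against 1.93. It also ended without A, at a log2 ratio of 1.65 (-0.34 to 3.64). Oprd1, the delta receptor gene, had 6 and 16 reads, and Oprk1, the kappa receptor gene, had 0 and 19.

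Both main dopamine receptor genes were present. Drd2, whose product is a Gi/o-coupled D2 receptor, had 92 reads in A and 167 in B, or 11.6 and 12.2 CPM. Drd1a, whose product is the Gs-coupled D1 receptor, had 40 and 179 reads, or 5.05 and 13.02 CPM, a difference that was called by the exact binomial test but not with TMM scaling. Drd1a was the single detected gene among the 11 classified as Gs-coupled. Per kilobase Drd2 was 1.98-fold of Drd1a, and the 95% interval of 0.634 to 6.20 held 1, so their levels were not separated. Drd5 had 0 and 3 reads, and 48.6% of its exon bases overlap an antisense transcript in the GENCODE M21 annotation. The effect of this overlap on its count was not tested. Drd3 and Drd4 had no read in either library.

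The adrenergic, muscarinic, histamine, somatostatin and neuropeptide Y families lay lower. Of 6 alpha-adrenergic receptor genes 3 were detected: Adra2a at 2.53 and 2.91 CPM, Adra2c at 1.26 and 5.75 CPM, and Adra1b at 1.14 and 2.11 CPM. Adra2c and Adra2a were not separated, at 1.67-fold per kilobase (95% interval 0.536 to 5.21), and their order turned round between the libraries, at 0.701-fold in A and 2.77-fold in B. None of the 3 beta-adrenergic genes was detected, and the highest, Adrb1, had 2 and 15 reads. Adrb3, with 1 and 13 reads, shares 24.9% of its exon bases with an antisense transcript. The 4 histamine receptor genes had no read in A and 8 reads together in B, of which Hrh2 had 4, Hrh1 3 and Hrh3 1.

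Muscarinic receptor genes were low, and their leading member depended on the library. Chrm5 was the single detected one, with 10 reads in A and 17 in B (1.26 and 1.24 CPM). Chrm3, a Gq-coupled receptor gene, had 1 read in A and 79 in B, or 0.126 and 5.75 CPM. Chrm1 had 2 and 6 reads, Chrm2 0 and 4, and Chrm4 0 and 1. The log2 ratio of Chrm5 to Chrm3 per kilobase was 0.93 (-0.63 to 2.50), and -1.04 (-2.60 to 0.53) without length correction, so no order of these genes was established.

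No somatostatin receptor gene reached 1 CPM in both libraries, although 3 of the 5 exceeded it in 1 of them. Sstr4 had 3 reads in A and 111 in B (0.379 and 8.08 CPM), and Sstr1 0 and 40. Sstr2 went the other way, with 35 and 13 reads (4.42 and 0.946 CPM). Sstr4 over Sstr2 per kilobase was 0.129-fold in A and 12.8-fold in B. The 95% intervals of the log2 ratio in each library alone did not overlap, at -5.64 to -0.27 in A and 1.45 to 5.92 in B. The fitted spread thus did not cover the difference between the libraries, and the pooled ratio (1.92-fold, 0.656 to 5.63) describes neither. Sstr3 had 0 and 10 reads, and Sstr5 none. Of the neuropeptide Y receptors Npy1r was the single detected gene, at 52 and 90 reads or 6.57 and 6.55 CPM. Its B over A ratio on library totals was 0.997 (95% counting interval 0.701 to 1.43). Npy5r had 1 and 4 reads and Npy2r 0 and 3, too few for a ratio, and Npy4r and Npy6r had none. The 9 genes without a read were thus Drd3, Drd4, Htr6, Adra1d, Adra2b, Hrh4, Sstr5, Npy4r and Npy6r.

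**Figure D2:**
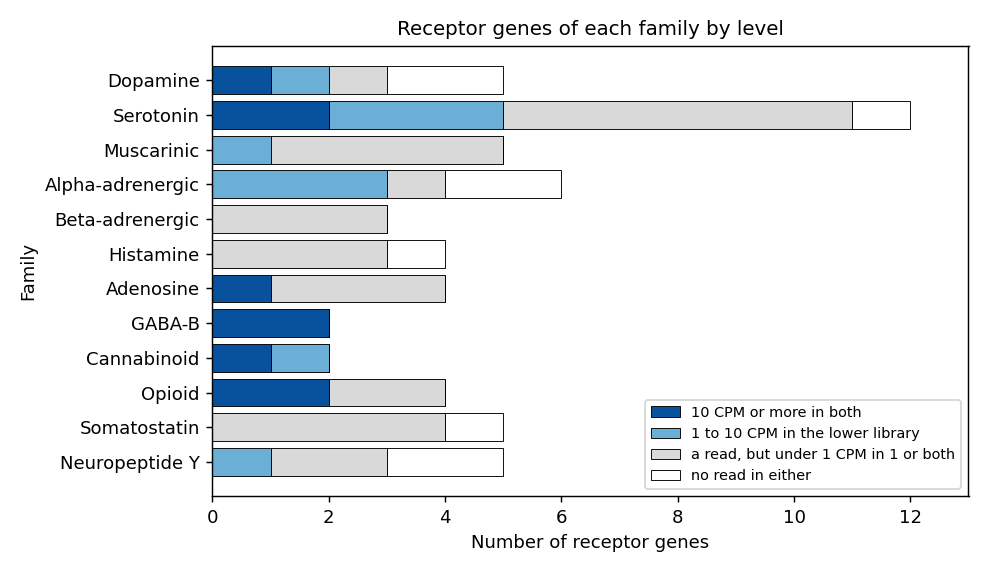
Number of receptor genes in each of the 12 families, stacked by level: 10 CPM or more in both libraries (dark blue), 1 to 10 CPM in the lower library (light blue), a read but under 1 CPM in 1 or both libraries (grey), and no read (white). Genes at 10 CPM or more occur in 6 families, and the beta-adrenergic, histamine and somatostatin families hold no detected gene.

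Ordered by the mean level of both libraries per kilobase of summed exons, the 9 genes at 10 CPM or more in both libraries ran Gabbr2, Gabbr1, Htr5a, Adora1, Cnr1, Oprl1, Htr1d, Drd2 and Oprm1. Their mean levels spanned 179 CPM per kilobase for Gabbr2 to 2.09 CPM per kilobase for Oprm1. Of the 8 neighbouring pairs in that order the ratio of 1 had an interval that excluded 1, that of Gabbr2 to Gabbr1. Gabbr2 exceeded each of the other 8 with an interval above 1, by 7.33-fold for Htr5a (2.81 to 19.1), 11.2-fold for Adora1 (4.34 to 28.8) and 91.6-fold for Oprm1 (32.5 to 258). Gabbr1 was not separated from Htr5a, Adora1 or Cnr1. Within families, a ratio of the highest to the second gene could be fitted in 10 of 12, with at least 10 reads for each gene, and in 5 its interval excluded 1. The histamine genes had no read in A, and of the 11 families with reads in both libraries 7 had the same highest gene per kilobase in A and B. Because the genes in each ratio were picked by their levels, these ratios describe the libraries and carry no test.

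**Figure D3:**
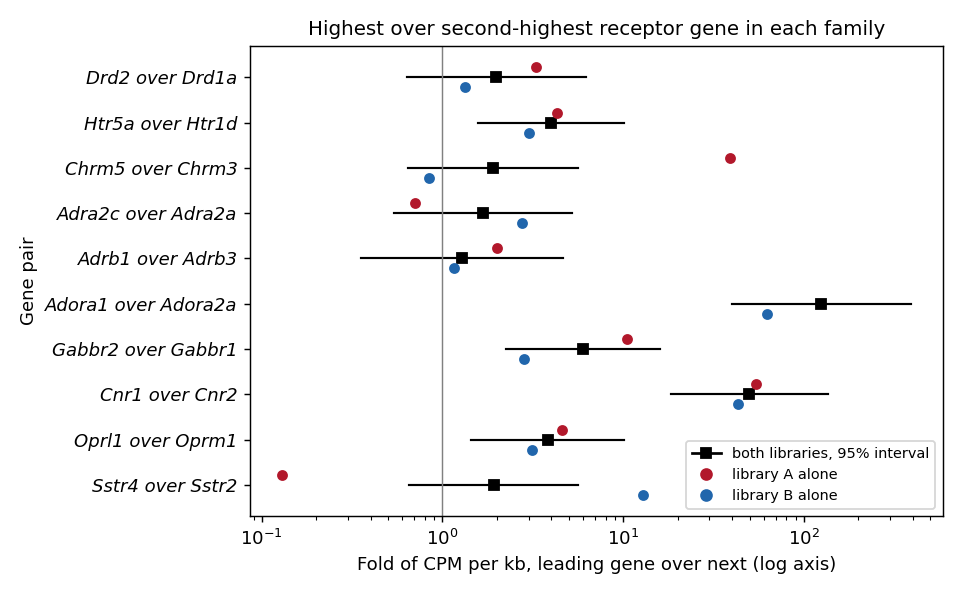
Fold of the highest over the second-highest receptor gene of each family, in CPM per kilobase on a log axis. Black squares with lines are both libraries with the 95% interval, red and blue points are library A and B alone, and the grey line marks equal levels. The Adora1, Cnr1, Gabbr2, Htr5a and Oprl1 intervals lie above 1. The library values of Chrm5 over Chrm3, Adra2c over Adra2a and Sstr4 over Sstr2 lie on opposite sides of 1.

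Grouped by the G protein that their products use, Gi/o-coupled receptors carried nearly all of the signal. Of 34 Gi/o-coupled genes 14 were detected, of 11 Gs-coupled genes 1, and of 10 Gq-coupled genes 4 (Htr2a, Adra1b, Htr2b and Chrm5). Htr5b and Npy6r were left unclassified. All 9 genes at 10 CPM or more in both libraries encode Gi/o-coupled receptors. Of the summed CPM per kilobase, Gi/o-coupled genes held 98.1% in A and 96.2% in B, Gq-coupled genes 1.25% and 1.76%, and Gs-coupled genes 0.691% and 2.06%. Gabbr1 and Gabbr2 made up most of this. Without them the Gi/o share was 93.2% in A and 89.1% in B, the Gq share 4.37% and 5.02%, and the Gs share 2.41% and 5.88%.

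The partners of these receptors inside the cell were widely detected. Of 10 G protein alpha subunit genes 9 were detected, led by Gnao1, which encodes the alpha subunit of Go, at 2460 and 2586 CPM, and Gnas, which encodes that of Gs, at 1833 and 954 CPM. Of 10 adenylyl cyclase genes 8 were detected, with Adcy1, a calmodulin-stimulated cyclase, at 1314 and 1639 CPM. The phospholipase C beta genes were all detected (4 of 4), with Plcb1 at 524 and 552 CPM and Plcb4 at 279 and 304 CPM. All 4 genes of the G protein-gated potassium channels were detected, but Kcnj3 stood at 184 and 3.42 CPM and Kcnj5 at 10.9 and 41.3 CPM, so their levels differed greatly between the libraries. All 7 receptor kinase and arrestin genes were detected, led by Arrb1 at 98.7 and 133 CPM.

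Most genes that make the ligands were not detected. Of 10 genes of amine synthesis and vesicle loading 1 was detected, Slc18a2, the vesicular monoamine transporter gene, at 274 and 372 CPM. Ddc, which encodes the decarboxylase shared by dopamine and serotonin synthesis, had 0 and 76 reads, and the other 8 stood at 16 reads or fewer in each library. Of 9 peptide precursor genes for the opioid, somatostatin and neuropeptide Y receptors 1 was detected, Npy at 5.68 and 1.09 CPM. Of the 3 genes for GABA synthesis and loading Gad2 stood at 58.4 and 56.8 CPM, Gad1 at 1.01 and 4.80 CPM and Slc32a1 at 0.126 and 0.728 CPM.

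The libraries differed for many receptor genes. Each gene's reads in A and B were compared with an exact two-sided binomial test against the library totals, with Benjamini-Hochberg adjustment over the 14107 genes with at least 10 reads. A gene was called when the adjusted p was under 0.05 and the levels differed by 2-fold or more. This compares the libraries and not conditions, and separately amplified libraries differ by more than counting error. Of the 35 receptor genes tested 20 were called (57.1%), against 44.5% of all genes tested. Of these, 6 were higher in A (17.1%, against 10.9%) and 14 in B (40.0%, against 33.6%). TMM scaling, which moves every log2 ratio of A over B by 0.38 towards A, gave 6 higher in A (17.1%, against 15.4% of all genes tested) and 10 higher in B (28.6%, against 24.0%). DESeq2 size factors, which move them by 0.48, gave 7 (20%, against 16.9%) and 9 (25.7%, against 22.0%). Under TMM the calls of Adrb3, Drd1a, Htr1b and Sstr3 were lost, and under DESeq2 size factors that of Htr4 as well, while Cnr1 was gained as higher in A.

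The genes higher in A were Gabbr2, Htr5a, Htr1d (2.46-fold), Htr2a (3.03-fold), Sstr2 (4.67-fold) and Htr7 (7.23-fold). Gabbr2, at 2.04-fold, lay just past the fold limit. With a limit of 4-fold, Sstr2 and Htr7 were left (5.71% of receptor genes tested, against 4.75% of all genes tested). The same limit left 12 genes higher in B (34.3%, against 17.7%). At the 2-fold limit, those higher in B included Drd1a (2.58-fold), Htr1b (2.32-fold), Adra2c (4.55-fold) and Htr5b (11.1-fold). With 3 reads or fewer in A, Sstr4 was 21.3-fold higher in B with a counting interval of 7.11 to 105, Chrm3 45.5-fold with 7.93 to 1820, and Adrb3 7.49-fold with 1.12 to 318. The other 7 called genes had no read in A, which was counted as past the fold limit. Against the limit of 3 reads in A, the level of Sstr1 as counted in B was 7.68-fold higher (adjusted p = 6.05e-08, exact binomial test). On the same basis Oprk1 was 3.65-fold higher, Htr1f 3.26-fold, Htr2c 3.07-fold, Adora2a 2.50-fold and Htr4 2.11-fold. These folds leave out the counting error of B and the choice of scaling, so they are not lower bounds. For Htr4 the lower 95% counting limit in B lay barely above the limit of 3 reads in A. Sstr3, with 10 reads in B, had a 95% counting limit there of 0.349 CPM, under the 0.379 CPM that a count of 0 allows in A, so no fold is given for it. No read in A with 10 or more in B occurred for 3.52% of all gene symbols and for 12.3% of the receptor genes. The reverse occurred for 0.250% of all symbols and for no receptor gene.

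Some levels were close when scaled by library totals. Of the genes at 10 CPM or more in both libraries Oprl1 had a B over A ratio of 0.989 (95% counting interval 0.839 to 1.17) and Drd2 one of 1.05 (0.806 to 1.36). TMM or DESeq2 scaling moves every such log2 ratio towards A, by 0.38 or 0.48, so this closeness rests on the scaling. Of the 9 genes at 10 CPM or more in both, 6 lay within 2-fold (66.7%), against 78.0% of all genes at that level. Of the 32 receptor genes with reads in both libraries 16 lay within 2-fold (50%), against 56.7% of all such genes. Marker lists of other cells also differed, and the summed level of 4 cycling cell genes came to 166 and 79.4 CPM in A and B, and of 7 bipolar cell genes 120 and 28.3 CPM. Their part in the receptor differences was not tested.

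**Figure D4:**
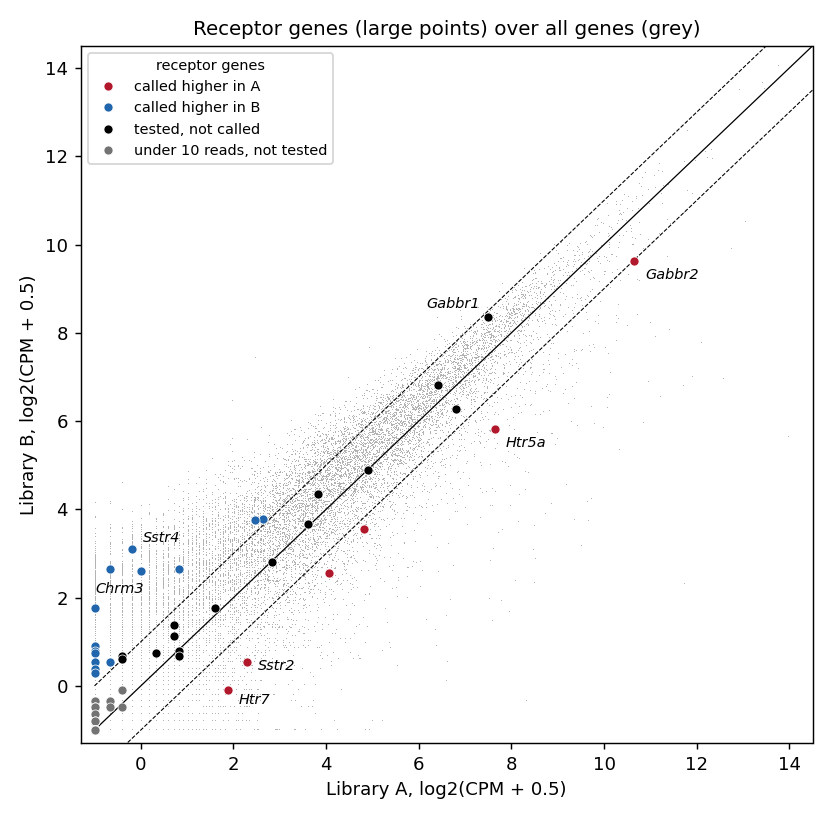
Level of every gene with a read (grey dots) and of the 57 receptor genes (large points) in library A against library B, as log2 of CPM plus a pseudocount of 0.5. The solid line marks equal levels and the dashed lines 2-fold. Red points (6 genes) were called higher in A, blue points (14 genes) higher in B, black points were tested and not called, and dark grey points had under 10 reads. Most of the blue points lie at the left edge, where A had few or no reads.

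Promoter windows were read for CG dinucleotides, which are dense in the promoters of many widely expressed genes. RefSeq promoter windows of 300 bases (250 before to 50 after a start, GRCm38.p6) were matched by symbol or older symbol for 44 of the 57 genes. The counts used for the genes are on another build, and no coordinates were carried between them. CG was counted within each window, where it reads the same on both strands, and the start with most CG was taken for each gene. The 4 windows below were chosen for their contrast of CG and level, with each CG in capitals. Gabbr2 (chr4:46991665-46991964, minus strand) and Hrh3 (chr2:180104358-180104657, minus strand) are rich in CG, and Oprm1 (chr10:6788326-6788625, plus strand) and Drd3 (chr16:43761971-43762270, plus strand) are poor.
Gabbr2: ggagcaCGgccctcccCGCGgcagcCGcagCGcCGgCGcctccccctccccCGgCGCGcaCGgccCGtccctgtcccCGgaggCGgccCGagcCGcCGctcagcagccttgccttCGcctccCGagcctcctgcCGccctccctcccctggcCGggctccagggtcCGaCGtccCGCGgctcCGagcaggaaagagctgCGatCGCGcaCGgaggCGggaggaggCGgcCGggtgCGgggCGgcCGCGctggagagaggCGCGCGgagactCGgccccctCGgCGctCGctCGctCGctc
Hrh3: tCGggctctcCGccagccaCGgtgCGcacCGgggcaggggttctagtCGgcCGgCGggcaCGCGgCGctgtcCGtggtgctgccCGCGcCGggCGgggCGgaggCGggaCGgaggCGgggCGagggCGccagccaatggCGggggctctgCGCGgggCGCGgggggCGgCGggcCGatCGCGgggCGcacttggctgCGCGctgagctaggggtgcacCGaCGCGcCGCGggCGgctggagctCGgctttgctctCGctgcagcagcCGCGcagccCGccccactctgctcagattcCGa
Oprm1: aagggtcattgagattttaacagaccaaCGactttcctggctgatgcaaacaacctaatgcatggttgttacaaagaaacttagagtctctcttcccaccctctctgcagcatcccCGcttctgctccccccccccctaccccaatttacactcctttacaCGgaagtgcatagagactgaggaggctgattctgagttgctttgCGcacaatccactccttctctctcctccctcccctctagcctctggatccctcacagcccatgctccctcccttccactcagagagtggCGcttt
Drd3: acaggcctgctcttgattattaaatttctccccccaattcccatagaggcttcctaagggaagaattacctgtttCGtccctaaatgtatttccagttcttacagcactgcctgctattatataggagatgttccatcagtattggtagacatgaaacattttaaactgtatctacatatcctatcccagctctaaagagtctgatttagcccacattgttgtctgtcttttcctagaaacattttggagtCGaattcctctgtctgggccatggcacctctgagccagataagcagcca

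CG content did not order these genes by level. Gabbr2, the highest of the set, had 46 CG in its window, and Hrh3, with 1 read in all, had 47. Oprm1, above 10 CPM in both libraries, had 5, and Drd3, with no read, had 2. Of the 9 genes at 10 CPM or more 5 had at least 20 CG (median 23), and of the 20 that had a read without being detected 10 did (median 21.5). Of the 10 detected below 10 CPM 3 did (median 8.5), and of the 5 matched genes without a read 2 did (median 15). These counts rest on the start with most CG. Cnr1, Htr1d, Drd1a, Adra1b, Hrh1 and Htr6 reached 20 there but had another start below 20. Which start the cells used was not tested. Over all 27025 genes with a window 28.8% had at least 20 CG, with a median of 8, and of the 44 receptor genes 45.5% did, with a median of 16. Htr7 also had 46 CG, at 3.16 and 0.437 CPM, and Oprd1 43, at 0.758 and 1.16 CPM, whereas Oprl1 had 5, at 29.4 and 29.1 CPM. These counts are a description and say nothing of which factors act on the genes.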

How the data were processed

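RNA from 2 pools of sorted J-RGCs was sequenced as single-end reads after amplification with the Nugen Ovation Ultralow V2 kit, per the labels' protocols. The authors deposited whole-number counts per gene symbol. Trimmomatic 0.32, TopHat2 2.0.10, HTSeq 0.6.1 and mm9 are named in the submitters' processing notes. Annotation, settings and strand use were not stated. Summary lines were left out of totals. Genes received 26.8% (A) and 30.9% (B) of the reads listed. Reads aligned to several places (18.5% and 20.8%) were not assigned, which lowers near-identical genes.

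Receptor genes were chosen by symbol, and that choice, the lists and the tests were made with earlier results of these data known. Lengths came from GENCODE M21 (GRCm38), matched for all 57 genes and 23639 of 24015 symbols, and may differ from the gene models counted. An intercept-only fit in edgeR 4.0.16 (R 4.3.3; TMM factors, expression filter, trended dispersion) gave a biological coefficient of variation of 0.507 over 11272 genes. A ratio of 2 genes used TMM-scaled means, and its 95% interval assumes that the genes vary independently. The genes named in full were those at 10 CPM or more, the highest of each family and those called between libraries. A single group offers edgeR no contrast to test. Alternatives covered scaling (TMM, DESeq2 1.42.0 size factors), thresholds, length, dispersion and each library alone. The statistics were tested on simulated data. Those data held counting error alone for the binomial test, and for the ratio intervals gene pairs were drawn at random. They thus do not cover spread between libraries in the binomial test, or intervals of genes picked by level. Python 3.11.15, numpy 2.4.6, pandas 2.3.3, scipy 1.17.1 and matplotlib 3.10.9 were used. Amplified reads carry no molecular identifiers, so limits cover counting error only.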

Additional observations from a re-analysis of the deposited data

How the results depend on the processing

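No paired analysis was possible because the series has 1 group. With 2 libraries, leaving 1 out shows which values rest on it. The number of detected receptor genes, 19 with both, was 21 to 29 with a single library. The number of families whose 2 leading genes were separated, in either direction, was 5 with both, 3 without A and 6 without B. Those 6 include Sstr4 and Sstr2 in reversed order, at a log2 ratio of -2.95 (-5.64 to -0.27). Cnr1 over Cnr2 was the single pair separated in the same direction in each library alone. Under the other settings the detected number was 14 to 22. At a 4-fold limit the genes higher in A numbered 2 instead of 6 (5.71%, against 4.75% of all genes tested). Those higher in B numbered 12 instead of 14 (34.3%, against 17.7%). With DESeq2 size factors those higher in B numbered 9 instead of 14 (25.7%, against 22.0%). Without Gabbr1 and Gabbr2 the mean Gi/o share was 91.2% instead of 97.1%. Without the expression filter the coefficient of variation was 0.683 instead of 0.507. The sign of the log2 ratio of Chrm5 to Chrm3 turned from 0.93 to -1.04 without length correction, and with a single library it was -0.25 to 5.29. That of Adra2c to Adra2a, 0.74, was -0.51 to 1.47 with a single library, and that of Sstr4 to Sstr2, 0.94, was -2.95 to 3.68. The cause was not tested. Of the 69 values of single family ratios under alternatives, 58 kept direction and call, 5 lost a call, 2 gained one and 4 turned sign. Adora1 over Adora2a could not be fitted without B. Depth limits the 13 genes with 1 to 9 reads, which gave no further call when genes with at least 1 read were tested. None of them had more than 8 reads, too few for a call higher in B even with every read there. The lack of further calls thus carries no information in that direction.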
